A study of Mus musculus with 9 samples.

Results

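MHC class II presentation genes were followed in RNA sequencing libraries of mouse cardiac ventricles. The 8 genes were taken by symbol from a deposited table of 24391 genes, and all 8 were found: H2-Aa, H2-Ab1, H2-Eb1, H2-DMa, H2-DMb1, Cd74, Ciita and Ctss. All libraries are labelled C57BL/6, and each group held 3 libraries. The stabilized beta-catenin libraries came from mice of 15 weeks that carried a Cre recombinase under the alphaMHC promoter, which is active in cardiomyocytes, and a beta-catenin gene that had lost exon 3, so that the protein escapes degradation. The adult control libraries came from mice of 15 weeks with the same Cre and an unaltered beta-catenin gene. The P6 libraries came from wild-type pups at postnatal day 6, with no Cre named. The labels mark the adult libraries, but not the P6 libraries, as a re-analysis. Age, Cre genotype and the set of libraries therefore all differ between the pups and the adults, and their parts cannot be told apart.

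MHC class II molecules display peptides of engulfed proteins to CD4+ T cells. An alpha and a beta chain form the peptide groove, the invariant chain Cd74 blocks it until cathepsin S has cut the chain down, and H2-DM then exchanges the remaining fragment for a peptide. Transcription of the class II chains, H2-DM and Cd74 depends on the co-activator Ciita, which is itself made mainly in macrophages, dendritic cells and B cells or after interferon gamma. In the heart, class II is known chiefly from resident macrophages and dendritic cells, so the altered beta-catenin allele lies in a cell type other than the usual source.

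Assigned reads came to 14965316 to 23236129 per stabilized beta-catenin library, 15234366 to 21568022 per adult control library and 7467551 to 7913057 per P6 library. Ctnnb1 itself, counted over the whole gene, lay at 7626 to 8391 normalized counts with stabilized beta-catenin and 7543 to 8369 in adult controls, but such a count cannot show the loss of exon 3. Axin2, a target of beta-catenin signalling, lay at 489 to 740 normalized counts with stabilized beta-catenin and 50.8 to 92.0 in adult controls. Cardiomyocyte markers were present in every library, with 7 markers summing to 931700 to 983200 normalized counts with stabilized beta-catenin, 1039000 to 1112000 in adult controls and 533200 to 605000 at P6. Adult control 1 differed most from the rest of its group, with a median absolute log2 deviation of 0.349 over genes, against 0.121 to 0.259 in the other 8 libraries. Stabilized beta-catenin 1 and 3 and P6 3 carried reads of the Y-linked gene Ddx3y (2413, 1231 and 811 normalized counts), whereas the other 6 libraries held at most 1.71. All adult controls were among those 6, so the groups also differed in Y-linked reads, stabilized beta-catenin against adult control included. H2-Ea-ps, the symbol of the class II alpha gene that C57BL/6 mice are known to carry in a non-functional form, was read in stabilized beta-catenin 1, 2 and 3 and in adult control 3, and in no other library.

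All 8 class II genes were higher in adult controls than at P6, by 3.10-fold for H2-DMa to 42.1-fold for H2-Aa. Of all genes tested, 31.3% were called higher there, and H2-DMb1 and Ciita entered the test only through the adult libraries. With stabilized beta-catenin against adult control, none of the 8 passed the test, where 1.49% of all genes were called higher and 0.308% lower. Cd74 and H2-Aa were the most abundant of the 8 per exon length in both adult groups, whereas at P6 Ctss stood highest. H2-Eb1, alone among the 8, had no overlap between its stabilized beta-catenin and adult control libraries. It was lower, a pattern shown in that direction by 9.19% of all genes tested and in the other by 9.84%.

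The classical chains were scarce in the pup heart. H2-Aa, the alpha chain of I-A, had 705, 1273 and 680 normalized counts with stabilized beta-catenin, 1365, 499 and 587 in the adult controls and 23.3, 14.5 and 13.4 at P6. Every adult library lay far above every P6 library, while the adult groups overlapped fully. A normalized count is the reads of a gene divided by 1 factor for its library, and the P6 values of H2-Aa rest on 36 reads in all. H2-Aa was higher in adult controls than at P6 by 5.39 on the log2 scale (SE 0.37, limma adjusted p = 6.708e-06), where log2 differences are of the normalized count + 1 and the p-value is adjusted over all 13398 genes tested. Because whole ventricles were sequenced, fewer cells carrying class II and less class II RNA per cell cannot be told apart.

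H2-Ab1, the beta chain that pairs with H2-Aa, had 329, 493 and 348 normalized counts with stabilized beta-catenin, 947, 291 and 305 in adult controls and 15.1, 10.1 and 20.8 at P6. It followed H2-Aa in that both adult groups overlapped and stood apart from P6. H2-Ab1 was higher in adult controls than at P6 by 4.80 on the log2 scale (SE 0.45, limma adjusted p = 3.19e-05). Without adult control 1, the difference of H2-Ab1 was 4.25.

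H2-Eb1, the beta chain of I-E, had 198, 34.2 and 183 normalized counts with stabilized beta-catenin, 1021, 384 and 202 in adult controls and 20.6, 23.1 and 25.2 at P6. Stabilized beta-catenin 2, the highest library of its group for the other 7 genes, was the lowest for H2-Eb1 and lay only just above P6. H2-Eb1 was higher in adult controls than at P6 by 4.17 on the log2 scale (SE 0.48, limma adjusted p = 0.0001115). That difference was 3.55 without adult control 1 and 4.71 without adult control 3.

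**Figure D1:**
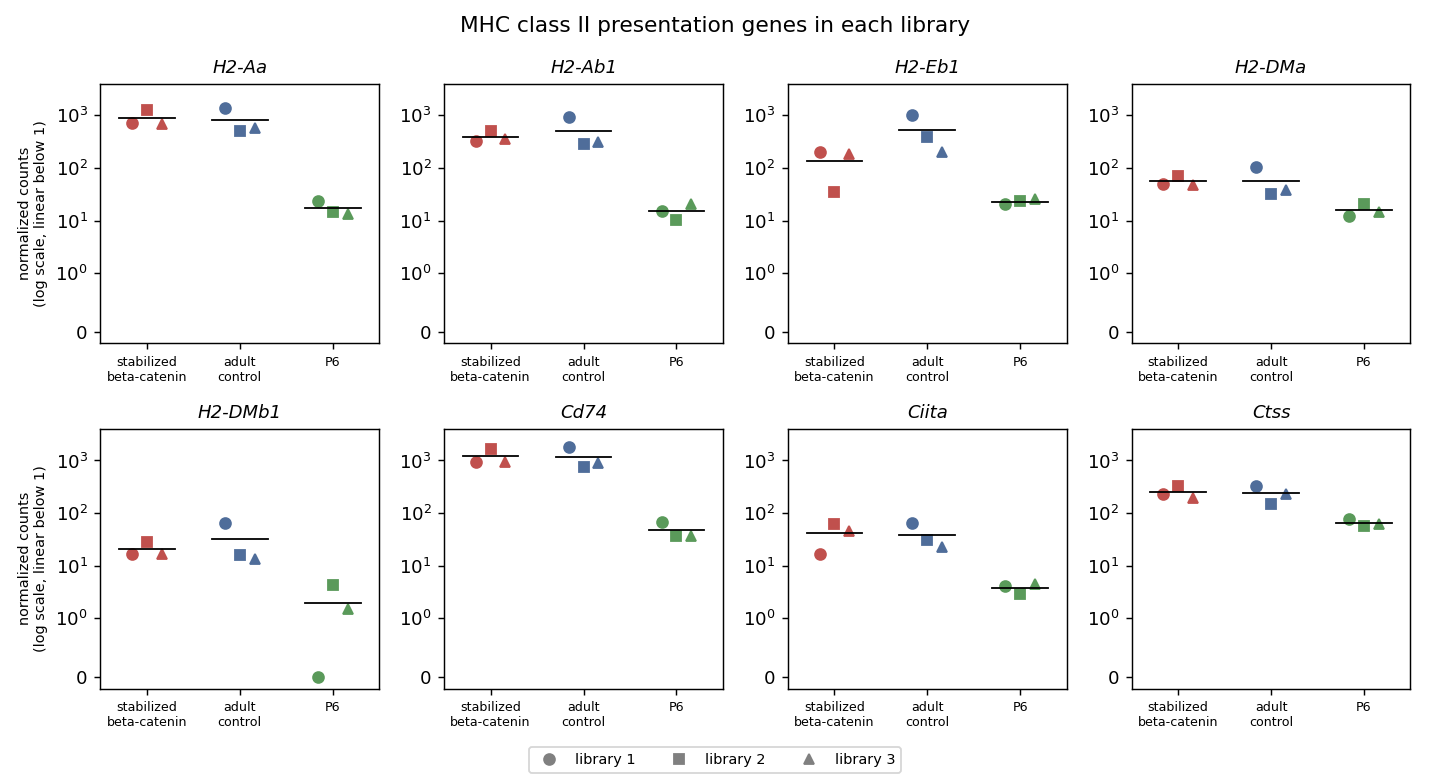
Normalized counts (y axis, logarithmic above 1 and linear below) of the 8 class II genes in the stabilized beta-catenin, adult control and P6 libraries (x axis), with 1 point per library shaped by library number and a line at the group mean. Every adult library lies above every P6 library for all 8 genes, and H2-Eb1 is at 34.2 in stabilized beta-catenin 2.

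Cd74, the invariant chain, had 939, 1676 and 955 normalized counts with stabilized beta-catenin, 1800, 745 and 884 in adult controls and 67.2, 36.1 and 37.1 at P6. As for H2-Aa, stabilized beta-catenin 2 and adult control 1 were the highest libraries of their groups, and no adult library reached down to P6. Cd74 was higher in adult controls than at P6 by 4.53 on the log2 scale (SE 0.35, limma adjusted p = 1.179e-05). The ratio of Cd74 to H2-Aa normalized counts was 1.33, 1.32 and 1.41 with stabilized beta-catenin, 1.32, 1.49 and 1.51 in adult controls and 2.88, 2.5 and 2.78 at P6. The ratio, which was not among the comparisons set in advance, was thus nearly constant across adult libraries and higher in each P6 library. The exact two-sided permutation test of adult control against P6 gave p = 0.1, the smallest value that 3 against 3 libraries can give (0.15 after Benjamini-Hochberg adjustment over 12 tests of ratios). Groups that do not overlap always give that value, so the test adds nothing to the ranges.

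The peptide exchange chains were scarce throughout. H2-DMa, the alpha chain of H2-DM, had 50.1, 71.9 and 46.8 normalized counts with stabilized beta-catenin, 103, 32.4 and 37.4 in adult controls and 12.3, 20.2 and 14.9 at P6. It showed the smallest rise of the 8 genes, 1.63 on the log2 scale in adult controls against P6 (SE 0.43, limma adjusted p = 0.009497), and 1.12 without adult control 1 (adjusted p = 0.009261). H2-DMb1, the beta chain, had 17.04, 28.2 and 16.6 normalized counts with stabilized beta-catenin, 65.8, 16.2 and 13.7 in adult controls and 0, 4.34 and 1.49 at P6, where 4 reads were assigned in all. H2-DMb1 was higher in adult controls by 3.44 on the log2 scale (SE 0.75, limma adjusted p = 0.003716), a size that depends on the pseudocount and was 2.18 with a pseudocount of 5, 2.82 without P6 1 and 4.02 without P6 2. The near copy H2-DMb2 held 1 to 5 reads in 7 libraries and none in P6 2 and P6 3, and reads may be divided between the copies in a way the table does not show.

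Ciita, the co-activator, had 17.04, 63.3 and 45.0 normalized counts with stabilized beta-catenin, 65.0, 30.3 and 22.3 in adult controls and 4.11, 2.89 and 4.46 at P6. The P6 values of Ciita rest on 8 reads, and even the lowest adult library stood above them. Ciita was higher in adult controls than at P6 by 2.93 on the log2 scale (SE 0.43, limma adjusted p = 0.0004132), and by 2.21 with a pseudocount of 5. Ctss, the cathepsin that trims the invariant chain and that many phagocytes make, had 227, 325 and 191 normalized counts with stabilized beta-catenin, 329, 150 and 230 in adult controls and 76.8, 57.8 and 60.9 at P6. The P6 level of Ctss was well above detection, and its rise in adult controls was 1.78 on the log2 scale (SE 0.27, limma adjusted p = 0.0005466).

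Of the 8 genes, 8 were called higher in adult controls than at P6, and 8 had groups that did not overlap. Over all genes tested in that comparison, 31.3% were called higher and 31.2% lower, and 34.7% did not overlap with adult controls above P6. The median log2 fold change was 3.80 over the 8 genes, against -0.02 over all genes tested. H2-DMb1 and Ciita reached the minimum of 10 normalized counts in 3 libraries only through the adult libraries, so that only a rise could bring them into the test; the other 6 reached it in all 3 P6 libraries as well. With any single adult control library left out, those 6 could still be tested and all 6 were called higher.

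Stabilized beta-catenin against P6 gave the same call for each gene, with the P6 libraries shared between both comparisons. H2-Aa was higher by 5.60 on the log2 scale, Cd74 by 4.64, H2-Ab1 by 4.61, H2-DMb1 by 3.15, Ciita by 2.98, H2-Eb1 by 2.19, Ctss by 1.89 and H2-DMa by 1.77. The weakest call was that of H2-Eb1 (SE 0.55, limma adjusted p = 0.004359), whose difference was 3.0 without stabilized beta-catenin 2. All 8 were called higher where 36.5% of all genes were, and all 8 lay above P6 without overlap where 38.7% of all genes did. H2-DMb1 and Ciita entered this comparison only through the stabilized beta-catenin libraries, so that only a rise could bring them into the test. The median was 3.07 against 0.00 over all genes tested. Over the same P6 libraries, H2-Eb1 was thus higher by 2.19 with stabilized beta-catenin and by 4.17 in adult controls.

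**Figure D2:**
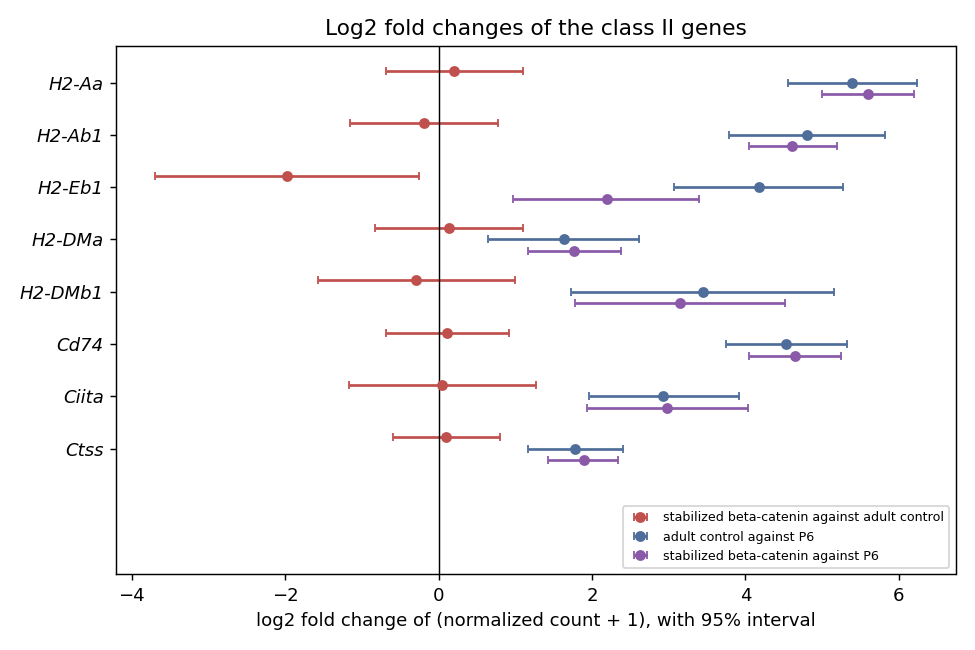
Log2 fold changes of (normalized count + 1) with 95% intervals from limma (x axis) for the 8 class II genes (y axis) in stabilized beta-catenin against adult control, adult control against P6 and stabilized beta-catenin against P6. The intervals of both comparisons with P6 lie above 0 for all 8 genes, whereas in stabilized beta-catenin against adult control 7 of the 8 intervals include 0 and that of H2-Eb1 runs from -3.70 to -0.26 before any adjustment.

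The order of the genes was read per kilobase of exon, on the GENCODE M21 basic exon union of each gene. With stabilized beta-catenin, Cd74 averaged 841 ± 297 normalized counts per kb and H2-Aa 785 ± 297 (SD, n = 3), followed by H2-Ab1 at 322 ± 74.1 and Ctss at 182 ± 51.1. H2-Eb1 stood at 83.0 ± 54.4, H2-DMa at 21.1 ± 5.10, H2-DMb1 at 14.7 ± 4.70 and Ciita at 5.08 ± 2.83 per kb in those libraries. The ranges of Cd74 and H2-Aa overlapped over those libraries, as did those of H2-DMa and H2-DMb1, though Cd74 stood above H2-Aa and H2-DMa above H2-DMb1 within each of the 3. In adult controls Cd74 averaged 807 ± 405 per kb, H2-Aa 724 ± 422, H2-Ab1 425 ± 309, H2-Eb1 321 ± 258 and Ctss 174 ± 66.2, and the ranges of each neighbouring pair overlapped. H2-DMb1 at 22.7 ± 20.9, H2-DMa at 21.6 ± 14.8 and Ciita at 4.77 ± 2.76 per kb came last there. At P6 Ctss came first with 48.0 ± 7.48 per kb, then Cd74 with 33.1 ± 12.5, H2-Aa with 15.1 ± 4.83, H2-Eb1 with 13.8 ± 1.41 and H2-Ab1 with 12.6 ± 4.41. Ctss and Cd74 overlapped in that group, as did the 3 classical chains. H2-DMa stood at 5.92 ± 1.51, H2-DMb1 at 1.38 ± 1.57 and Ciita at 0.464 ± 0.1 per kb.

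**Figure D3:**
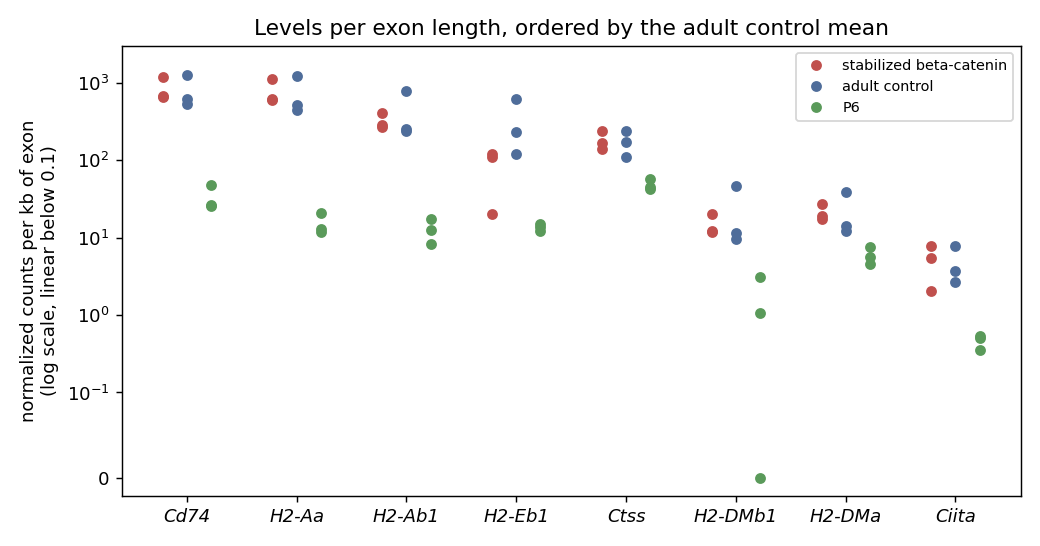
Normalized counts per kb of exon (y axis, logarithmic above 0.1 and linear below) of the 8 class II genes (x axis, ordered by the adult control mean), with 1 point per library for stabilized beta-catenin, adult control and P6. Cd74 and H2-Aa lead in both adult groups, whereas at P6 the Ctss points (42.6 to 56.5) stand above those of H2-Aa, H2-Ab1 and H2-Eb1.

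Stabilized beta-catenin against adult control asked whether the altered allele moved class II transcripts in the adult heart. None of the 8 genes was called by limma, edgeR or DESeq2, where limma called 1.49% of all genes higher and 0.308% lower, and 1 of the 8 had an unadjusted p under 0.05 with each of these tools. Over all genes the share with such a p was 12.8% for limma, 13.0% for edgeR and 12.4% for DESeq2, so 1 of 8 is near the background. H2-Aa differed by 0.20 on the log2 scale (95% interval -0.69 to 1.1), Cd74 by 0.11 (-0.69 to 0.92), H2-Ab1 by -0.19 (-1.16 to 0.78) and Ctss by 0.10 (-0.59 to 0.80). These intervals still admit changes in either direction. H2-DMa differed by 0.14 (-0.83 to 1.1), Ciita by 0.05 (-1.17 to 1.27) and H2-DMb1 by -0.29 (-1.57 to 1.00). Single libraries stood out: adult control 1 was the highest of the controls for 8 of 8 genes, and stabilized beta-catenin 2 the highest of its group for 7 of 8. Without adult control 1, H2-Aa differed by 0.65 (limma adjusted p = 0.22), H2-DMa by 0.65, Cd74 by 0.50, Ciita by 0.48 and Ctss by 0.38, and H2-Ab1 and H2-DMb1 turned to 0.36 and 0.40, all short of a call. Leaving out both libraries, a step chosen after the values were seen, gave H2-Aa 0.35 (limma adjusted p = 0.331). Adding the presence of Ddx3y reads as a covariate, likewise chosen after the values were seen, gave 0.79. These reads were counted as absent in all controls and in stabilized beta-catenin 2, so 0.79 sets that library alone against the controls.

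H2-Eb1 differed by -1.98 on the log2 scale in stabilized beta-catenin against adult control (SE 0.75, 95% interval -3.70 to -0.26), with an unadjusted p of 0.02874 and a limma adjusted p of 0.3174 over 12971 genes. It was lower in 3 of 3 stabilized beta-catenin libraries than in any control, a pattern shown in that direction by 9.19% of all genes tested and in the other by 9.84%. The gap between the nearest libraries was small, with 198 normalized counts in stabilized beta-catenin 1 and 202 in adult control 3. Without stabilized beta-catenin 2 the difference of H2-Eb1 was -1.17 (adjusted p = 0.6739), without adult control 1 it was -1.36, and without both it was -0.54. With the presence of Ddx3y reads as a covariate it was -3.61, which again sets stabilized beta-catenin 2 alone against the controls.

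H2-Eb1 was then set against H2-Aa within each library, a ratio chosen after the values were seen. H2-Eb1 to H2-Aa stood at 0.282, 0.0269 and 0.269 with stabilized beta-catenin, 0.748, 0.769 and 0.344 in adult controls and 0.882, 1.60 and 1.89 at P6. The groups did not overlap, and stabilized beta-catenin 2 was an order of magnitude below the rest of its group. On the log2 scale the ratio differed by -2.20 in stabilized beta-catenin against adult control and by -1.25 in adult control against P6, and the exact two-sided permutation test gave p = 0.1 for each, the smallest that 3 against 3 libraries can give (0.15 after adjustment over the 12 ratio tests).

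Some other symbols of the MHC region differed between the same libraries. Among 38 other symbols beginning with H2, 5 had at most 1 read over the P6 libraries and at least 20 over the adult ones, a rule chosen after the values were seen, which fixes their absence at P6: H2-Bl, H2-DMb2, H2-Ea-ps, H2-Q1 and H2-Q2. The rule was set on reads, although the adult libraries were more numerous and each held more reads than any P6 library. The share of all genes that meet it was not counted, so 5 of 38 is a description only. H2-Ea-ps had 4, 19 and 3 reads with stabilized beta-catenin, 0, 0 and 5 in adult controls and 0 in each P6 library. H2-Q2, a class I gene of the Q cluster, had 12, 73 and 36 reads with stabilized beta-catenin, 1, 0 and 23 in adult controls and 0, 1 and 0 at P6. Apart from H2-DMb2, which was read in every adult library, these genes were read in the libraries with a low H2-Eb1 to H2-Aa ratio, adult control 3 included, and among the 6 adult libraries stabilized beta-catenin 2 was the extreme for both. Tap1, Psmb8 and Psmb9, which lie in the same region, overlapped between stabilized beta-catenin and adult control. Their neighbour Tap2, named after its values were seen, was lower with stabilized beta-catenin without overlap, as were 9.19% of all genes tested. Tap2 was 1 of 3 such genes among the 12 class I presentation genes listed. Tap2 differed by -0.27 on the log2 scale and was not called (limma adjusted p = 0.4307). H2-Bl had 8, 45 and 23 reads with stabilized beta-catenin, 0, 1 and 29 in adult controls and none at P6, and H2-Q1 had 8, 28 and 21 reads with stabilized beta-catenin, 0, 0 and 6 in adult controls and none at P6. A count of 0 reads still allows up to 3 reads in a library of the same depth, which is 4.11 to 4.46 normalized counts at P6.

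Genes of the region in the opposite direction were H2-T23 and Rps18, also chosen after their values were seen. H2-T23, a non-classical class I gene, had 71.2, 34.2 and 71.1 normalized counts with stabilized beta-catenin, 212, 181 and 77.0 in adult controls and 58.9, 70.8 and 38.6 at P6. Rps18, a ribosomal protein gene, had 44.1, 2.57 and 50.4 normalized counts with stabilized beta-catenin, 112, 88.0 and 54.7 in adult controls and 82.2, 69.4 and 84.7 at P6. For both, stabilized beta-catenin 2 was the lowest library of all and adult control 3 the lowest of the controls. Class II and other genes of the region are known to differ in sequence between mouse strains, and reads of all libraries were aligned to a single reference; whether the libraries share an MHC haplotype, and its part in the H2-Eb1 values, was not tested.

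**Figure D4:**
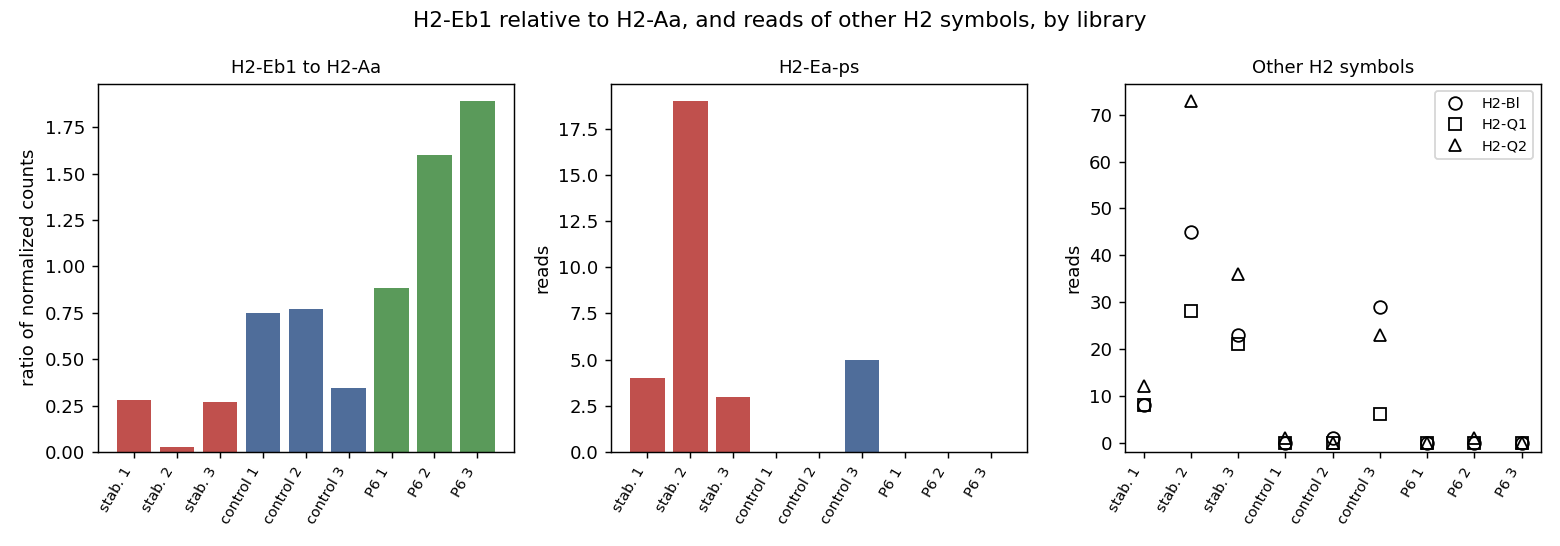
For each stabilized beta-catenin (stab.), adult control and P6 library (x axes), the left panel shows the ratio of H2-Eb1 to H2-Aa normalized counts, the middle panel H2-Ea-ps reads and the right panel reads of H2-Bl, H2-Q1 and H2-Q2. Stabilized beta-catenin 2 has the lowest ratio (0.0269) and the most reads of H2-Ea-ps (19) and H2-Q2 (73), and adult controls 1 and 2 and the P6 libraries have at most 1 read of any of these symbols.

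The promoters of the genes that rose together were read from RefSeq (GRCm38.p6), whose table holds entries for 5 of the 8 genes, from 250 bases before to 50 after each start. In class II promoters generally, an X box bound by the RFX complex and a CREB-like factor lies upstream of a Y box bound by NF-Y, and Ciita docks onto the assembled proteins. The stretches from 110 to 21 bases before the start are shown for the 3 genes in which the Y box letters ATTGG lay on the sense strand there, at chr17:34287844-34287933 (minus strand) for H2-Aa, chr17:34305757-34305846 (plus strand) for H2-Eb1 and chr17:34153081-34153170 (plus strand) for H2-DMb1. Capitals mark ATTGG in all 3, the CRE core letters TGACG in H2-Aa, and in the other two a run of 13 bases that H2-Eb1 and H2-DMb1 share.
H2-Aa: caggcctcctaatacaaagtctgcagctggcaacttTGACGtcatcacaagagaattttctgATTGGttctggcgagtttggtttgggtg
H2-Eb1: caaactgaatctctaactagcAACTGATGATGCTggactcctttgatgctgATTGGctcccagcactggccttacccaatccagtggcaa
H2-DMb1: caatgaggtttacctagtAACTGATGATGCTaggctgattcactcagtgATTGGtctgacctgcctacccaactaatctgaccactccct

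ATTGG began 48 bases before the start in H2-Aa, 59 before in H2-Eb1 and 61 before in H2-DMb1. The shared run began 89 bases before the start in H2-Eb1 and 92 before in H2-DMb1, so that it lay at nearly the same distance from ATTGG in both. ATTGG is common, being found on either strand in 37.4% of 32851 promoters of the table, and TGACG in 20.8%. The X box core letters ACNGATG, which lie within the shared run and were widened from ACAGATG after the sequences were seen, occurred in 9.85% of promoters, and together with ATTGG in 3.65%. ACAGATG itself occurred in 5.01% of promoters and, among the 5 genes with an entry, only in H2-Aa, on the minus strand 232 bases before the start. In Ctss ACNGATG began 206 bases before the start with no ATTGG in the window, and in H2-DMa ATTGG began 198 bases before the start in 1 of its 2 entries. These are matches of letters and not measured binding.

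Other genes of the class II pathway were mostly higher in adult controls as well. Of the 16 listed, 14 were in the table and 8 could be tested in adult control against P6, of which 6 were higher and 1 lower, with a median log2 fold change of 0.89. Over all genes tested in that comparison, 31.3% were higher and 31.2% lower. Ctsd, a lysosomal aspartic protease, was higher by 2.07 on the log2 scale (limma adjusted p = 1.46e-05), Cd86, a costimulatory ligand, by 1.53 (0.003301) and Ctsb, another cathepsin, by 1.30 (3.221e-05). Cd40, a receptor for T cell help, fell by 0.97 (limma adjusted p = 0.004492). H2-Oa and H2-Ob, the chains of an inhibitor of H2-DM, were too low for that test, with 0 to 1.49 normalized counts of H2-Oa and 5.78 to 8.91 of H2-Ob at P6. In stabilized beta-catenin against P6, 6 of 8 were higher and 1 lower, and in stabilized beta-catenin against adult control 0 of 9 were called. Over all genes, 36.5% were higher and 35.8% lower in stabilized beta-catenin against P6. In stabilized beta-catenin against adult control, 1.49% were higher and 0.308% lower. These shares apply to the lists below.

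The transcription factors of class II promoters went in both directions. Of 11 tested in adult control against P6, 3 were higher and 6 lower, where 31.3% of all genes were higher and 31.2% lower, with a median log2 fold change of -0.40. Rfx5, a subunit of the X box complex, fell by 1.31 on the log2 scale (limma adjusted p = 0.0003389), with 108, 116 and 116 normalized counts with stabilized beta-catenin, 107, 117 and 82.1 in adult controls and 299, 234 and 229 at P6. Nfya, a subunit of NF-Y, fell by 1.00 (limma adjusted p = 0.00115). Irf4, which entered the test only through the adult libraries, was higher by 1.94 (adjusted p = 0.00473) and Irf1, an interferon-induced factor, by 0.85 (0.01098). In stabilized beta-catenin against P6, 2 of 11 were higher and 5 lower, and in stabilized beta-catenin against adult control none of 11 was called.

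Transcripts of the interferon gamma pathway were higher in adults, but the cytokine itself was hardly read. Ifng had 0, 0.856 and 0 normalized counts with stabilized beta-catenin, 1.67, 0 and 0 in adult controls and 0 in each P6 library. Of 6 pathway genes tested in adult control against P6, 5 were higher and 0 lower, with 0.75 as the median log2 fold change, among them the receptor chain Ifngr2 by 1.22 on the log2 scale (limma adjusted p = 0.0003413) and the kinase Jak1 by 1.15 (5.143e-05). In stabilized beta-catenin against P6 the count was again 5 of 6, and in stabilized beta-catenin against adult control it was 0 of 6. Of all genes, 31.3% were higher in adult control against P6 and 36.5% in stabilized beta-catenin against P6.

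Class I presentation genes were also mostly higher in adult controls. Of 12 genes, 10 were higher and 0 lower than at P6, with a median log2 fold change of 1.20, where 31.3% of all genes were higher and 31.2% lower. H2-K1 was higher by 2.23 (limma adjusted p = 0.0003261), H2-D1 by 2.12 (4.544e-05), the light chain B2m by 1.60 (0.0006174) and the immunoproteasome subunit Psmb9 by 1.37 (0.01383). Against P6, stabilized beta-catenin gave 9 higher and 1 lower of 12, and against adult control 0 of 12.

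Markers of cells that can carry class II were counted beside these genes. The 18 macrophage markers summed to 5004 to 5977 normalized counts with stabilized beta-catenin, 5162 to 7548 in adult controls and 1647 to 1853 at P6, and none was at 0 in a whole group. In adult control against P6, 16 of 18 were higher and 1 lower, with a median of 1.61, where 31.3% of all genes were higher and 31.2% lower. Timd4, among those called higher, entered the test only through the adult libraries, with 0 to 2.89 normalized counts at P6. Cd163, a scavenger receptor of resident macrophages, was higher by 4.45 on the log2 scale (limma adjusted p = 2.716e-06), with 436, 252 and 325 normalized counts with stabilized beta-catenin, 287, 346 and 508 in adult controls and 15.1, 20.2 and 13.4 at P6. The fractalkine receptor Cx3cr1, named after its value was seen as the single marker called lower, fell by 1.79 (limma adjusted p = 0.0005864). Both class II and the macrophage sum were thus higher in adults, and the part of cell number in the class II values was not tested.

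A ratio within each library sets class II against a macrophage transcript, and the transcripts used, Csf1r, Lyz2 and Cd163, were chosen after the values were seen. H2-Aa to Csf1r, the receptor that macrophages depend on, was 1.09, 2.19 and 1.11 with stabilized beta-catenin, 1.66, 0.822 and 0.732 in adult controls and 0.0794, 0.0481 and 0.0539 at P6. The adult ratios all lay above the P6 ratios, by 4.08 on the log2 scale in adult control against P6 (exact two-sided permutation p = 0.1, the smallest possible with 3 against 3 libraries; 0.15 adjusted over the 12 ratio tests). The size depended on the transcript chosen. H2-Aa to Lyz2, the lysozyme of phagocytes, was 0.593, 0.851 and 0.656 with stabilized beta-catenin, 0.751, 0.631 and 0.5 in adult controls and 0.157, 0.0901 and 0.0968 at P6, a log2 difference of 2.48 in adult control against P6. H2-Aa to Cd163 was 1.62, 5.04 and 2.09 with stabilized beta-catenin, 4.75, 1.44 and 1.15 in adult controls and 1.55, 0.714 and 1.0 at P6, a log2 difference of 0.95 in adult control against P6 with ranges that overlapped. Ctss to Csf1r stood at 0.351, 0.560 and 0.312 with stabilized beta-catenin, 0.400, 0.246 and 0.287 in adult controls and 0.262, 0.192 and 0.246 at P6. Here the ranges of adult controls and P6 overlapped, with a difference of 0.40 on the log2 scale (exact two-sided permutation p = 0.2, 0.267 adjusted over the 12 ratio tests). In stabilized beta-catenin against P6 the difference of that ratio was 0.77 without overlap (exact two-sided permutation p = 0.1, 0.15 adjusted). Csf1r itself was higher in adult controls than at P6 by 1.40 on the log2 scale (limma adjusted p = 8.891e-05), beside 1.78 for Ctss and 5.39 for H2-Aa.

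The monocyte receptor Ccr2, which marks macrophages recruited from blood, had 103, 260 and 156 normalized counts with stabilized beta-catenin, 88.3, 47.5 and 42.5 in adult controls and 24.7, 26.0 and 23.8 at P6. It differed by 1.5 on the log2 scale in stabilized beta-catenin against adult control without overlap, but did not pass (limma adjusted p = 0.1138), and it was named after its values were seen. None of the 18 macrophage markers was called in that comparison, where their median was -0.35. Over all genes, limma called 1.49% higher and 0.308% lower there. Ccr2 was the only marker higher without overlap, and 3 were lower without overlap: Cd68 at -0.49 (limma adjusted p = 0.3226), Itgam at -0.51 (0.3321) and Aif1 at -0.49 (0.5752). Of all genes tested, 9.84% were higher and 9.19% lower without overlap in that comparison.

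Dendritic cell markers gave a mixed picture that turned on a single gene. The 11 dendritic cell markers summed to 364 to 421 normalized counts with stabilized beta-catenin, 411 to 497 in adult controls and 348 to 415 at P6. Zbtb46, a transcription factor of classical dendritic cells that endothelial cells also express, made up 118 to 167 of that sum with stabilized beta-catenin, 174 to 283 in adult controls and 270 to 336 at P6. The other 10 markers, split off after the values were seen, summed to 246, 263 and 206 with stabilized beta-catenin, 293, 214 and 222 in adult controls and 79.5, 78.05 and 95.05 at P6. Naaa made up 163, 165 and 143 of that sum with stabilized beta-catenin. It made up 200, 165 and 181 in adult controls and 65.8, 57.8 and 71.3 at P6. Like class II, the sum of the 10 markers was higher in every adult library than in any P6 library. Of the 10, 8 had a higher mean in both adult groups than at P6, but the share of all genes that did so was not counted. Only Naaa among these 8 could be tested in adult control against P6. The others rested on few reads over the P6 libraries, from 0 for Xcr1, Cd209a and Siglech to 10 for Itgax. The part of dendritic cells in the class II values was not tested. Xcr1, Cd209a and Siglech, which define dendritic cell subsets, were at 0 in all P6 libraries and had at most 10.02 normalized counts in any adult library. In adult control against P6 only 2 of the 11 could be tested, with Naaa higher by 1.47 (limma adjusted p = 8.935e-05) and Zbtb46 lower, at -0.52 (0.04447). Against P6, stabilized beta-catenin gave 2 higher and 1 lower of 3, led by Clec10a at 3.26 (limma adjusted p = 2.315e-05), which entered the test only through the stabilized beta-catenin libraries. The 8 B cell markers in the table summed to 18.04 to 37.7 with stabilized beta-catenin, 22.5 to 28.3 in adult controls and 41.6 to 75.4 at P6. Few of them could be tested: 0 in stabilized beta-catenin against adult control, 1 in adult control against P6 and 2 in stabilized beta-catenin against P6. None of those tested was called. The 8 T cell markers summed to 15.03 to 42.8 with stabilized beta-catenin, 28.1 to 33.4 in adult controls and 26.0 to 35.6 at P6. Only 1 of them, Cd4, reached the filter in each comparison, and it was not called. The others were too low to be tested. The B cell sum was therefore higher in each P6 library than in any adult library, opposite to class II.

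The 6 pan leukocyte markers summed to 541 to 775 normalized counts with stabilized beta-catenin, 608 to 777 in adult controls and 370 to 428 at P6, and 4 of 6 were called higher in adult controls than at P6, led by Cd53 at 1.43 (limma adjusted p = 0.0005093). H2-Aa to Ptprc, the common leukocyte antigen and likewise chosen after the values were seen, stood at 3.97, 5.41 and 4.14 with stabilized beta-catenin, 7.87, 3.11 and 3.47 in adult controls and 0.254, 0.172 and 0.141 at P6. Of the other cells of the ventricle, the 7 endothelial markers gave 0 higher and 5 lower in adult controls against P6, led by Cdh5 at -1.49 (limma adjusted p = 0.003201). The 6 fibroblast markers gave 1 higher and 4 lower, led by Col1a1 at -4.12 (5.297e-06), and the 7 cardiomyocyte markers 5 higher and 0 lower, led by Tnni3 at 1.82. Over all genes tested in that comparison, 31.3% were higher and 31.2% lower.

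**Figure D5:**
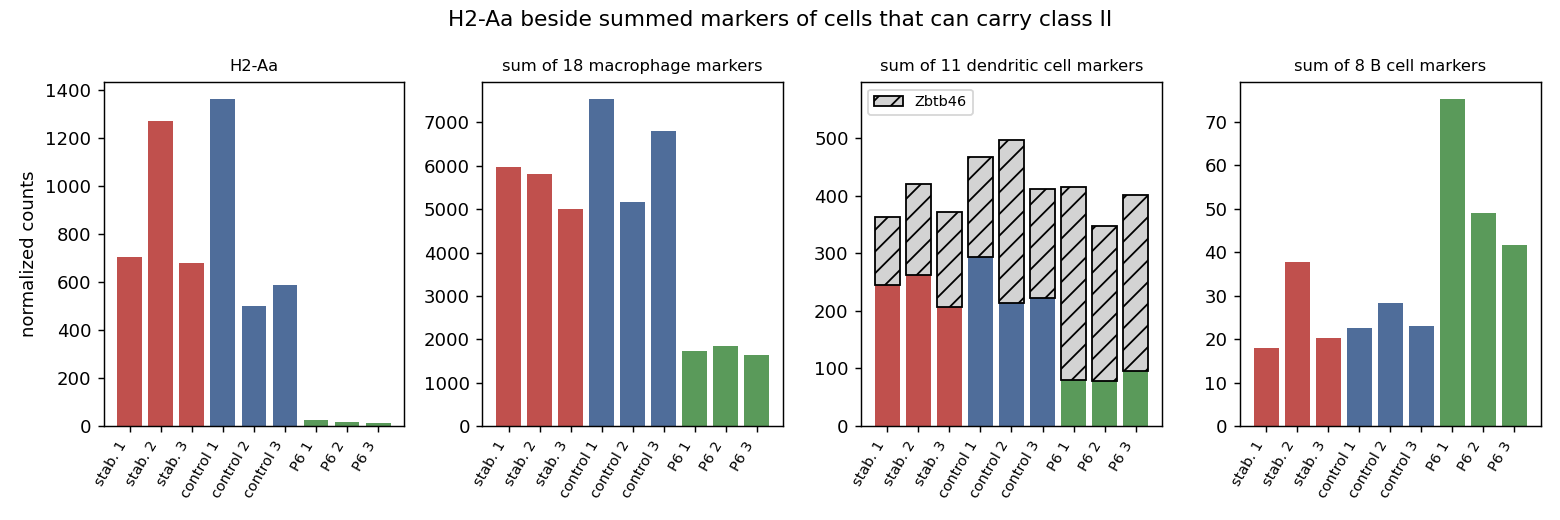
Normalized counts (y axes) of H2-Aa and of the summed macrophage, dendritic cell and B cell markers in each stabilized beta-catenin (stab.), adult control and P6 library (x axes). H2-Aa and the macrophage sum are higher in every adult library than in any P6 library, the dendritic cell sums of the groups lie close together only with Zbtb46 (hatched), and the B cell sum is highest at P6.

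Within groups, the class II genes apart from H2-Eb1 varied together across libraries, to differing degrees. This was not particular to class II, since genes outside the set followed the same deviations, as listed below. On deviations from the group means over the 9 libraries, the median Pearson r of a gene with the other members was 0.75 for H2-Ab1, 0.74 for H2-Aa, 0.71 for H2-DMa and Ctss, 0.70 for Cd74, 0.59 for Ciita and 0.40 for H2-DMb1, against 0.00 for H2-Eb1. These points share libraries and their scaling, and adult control 1 and stabilized beta-catenin 2 are the extremes for most genes. Among 13547 genes, the 5 whose levels were most like the mean of the 8 over 9 libraries were Pagr1a (r = 0.997), Sssca1 (0.995), Tysnd1 (0.994), 2310047M10Rik (0.993) and Emc4 (0.993). On deviations from the group means they were Psmg3 (0.992), Dhx35 (0.989), Ttc4 (0.987), Pagr1a (0.986) and Csnk1g2 (0.984). The sizes were unlike, however: Pagr1a had 371, 401 and 371 normalized counts with stabilized beta-catenin, 465, 370 and 359 in adult controls and 255, 252 and 251 at P6.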

How the data were processed

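Total RNA of cardiac ventricles was sequenced in 9 libraries. The submitters' processing notes name Bowtie2 2.0, DESeq2 and mm9. Counting was by htseq-count, per the file headers. The annotation and strand setting are not given in the sources used here. The authors deposited a table of signal values, normalized counts equal to reads divided by 1 factor per library, and count files for the P6 libraries. Whole reads were recovered (100% of values whole within 0.001), and 24364 genes matched by symbol to the deposited P6 counts in each P6 library, all equal. No columns of other samples were present.

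Groups came from the labels, which do not say whether libraries are separate animals, so p-values measure the spread between these libraries only. Replicates differed by more than sampling noise (chi-square per degree of freedom 5.08 to 144). A gene entered a comparison if 3 or more libraries of its 2 groups reached 10 normalized counts. limma 3.58.1 in R 4.3.3 (empirical Bayes with trend, two-sided) was fitted to log2(normalized count + 1), with Benjamini-Hochberg adjustment over all genes and a threshold of 0.05. Single ratios used exact permutation tests, which cannot fall below 0.1. Alternatives were other pseudocounts, filters and scalings, count models of the recovered reads (edgeR 4.0.16, DESeq2 1.42.0), 1 fit of all 3 groups, a replicate block and each library left out. The procedure was tested on simulated data with the same spread for every gene and no outlying library. That setting is unlike these libraries, so no support for the calls is drawn from it. Intervals come from the limma fits and, like the p-values, measure the spread between these libraries only. Floors of 3 reads cover counting error only.

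The members and gene lists were chosen with earlier results of these data known. Named genes were the 8 members, up to 4 called genes with the largest change per pathway list, the fixed H2-Ea, H2-Oa, H2-Ob and Ifng, the called marker with the largest change and defining markers at 0 per cell type, and the 5 genes most like the members. Exceptions are said to be so in the text, and 1 further fixed gene is not reported here.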

Additional observations from a re-analysis of the deposited data

How the results depend on the processing

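With adult control or stabilized beta-catenin against P6, every member that could be tested was called higher under every alternative run. A filter of 50 left 5 members to test and call in adult control against P6 and 4 in stabilized beta-catenin against P6. In stabilized beta-catenin against adult control no alternative called a member, and the sign held for H2-Eb1 (-3.61 to -0.54) but turned in some alternatives for the other 7. Over all genes in that comparison, 193 were higher and 40 lower; these counts were 124 higher with a filter of 50, 363 and 201 with DESeq2, 333 and 161 with all 3 groups in 1 fit, 26 and 10 with the Y-linked covariate, 109 higher without adult control 1 and stabilized beta-catenin 2 (the last 2 chosen after seeing the data), and 25 to 259 higher and 2 to 138 lower with 1 library left out, fewest without stabilized beta-catenin 3 and most without adult control 1. The cause was not tested. The fit with the Y-linked covariate, which gave the -3.61 of H2-Eb1, sets stabilized beta-catenin 2 alone against the controls. Total-count scaling moved the median of all genes to -0.44 in adult control against P6 and -0.40 in stabilized beta-catenin against P6. It gave 2316 genes higher and 6389 lower, in place of 4198 and 4182, in the first comparison and 2946 higher, in place of 4882, in the second, with all 8 members still called.

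With a replicate block, 66 genes were lower in stabilized beta-catenin against adult control, and H2-Eb1 kept -1.98 (limma adjusted p = 0.1418). The labels do not say that numbers pair libraries, same-numbered libraries had correlations of -0.12 to 0.20 between their deviations from the group means, and not every library correlated best with its own number. The block changed no member's call. H2-DMb1 and Ciita rest on 4 and 8 reads at P6, so that the size of their fold changes depends on the pseudocount.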
